A study of Homo sapiens with 16 samples.

Results

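The lysyl oxidase family was described in H3K9me2 ChIP-seq of BJ-5ta cells, a human foreskin fibroblast line immortalized with telomerase. The members were the 5 genes LOX, LOXL1, LOXL2, LOXL3 and LOXL4, chosen by name, and every 2000-bp window around an annotated transcription start of these genes was used. This gave 37 of the 272902 windows in the table, or 36 of 237274 after windows with the same coordinates were counted once. LOX had 6 distinct windows, LOXL1 5, LOXL2 15, LOXL3 9 and LOXL4 1, and many of them overlap, so neighbouring windows share reads and are not independent. LOXL2 was singled out among the members because of its ChIP signal in wild type cells at low against high serum, so its values in that comparison are a description and carry no test.

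Wild type cells and ΔLEO1 cells, in which CRISPR/Cas9 disrupted LEO1, a subunit of the PAF1 complex that travels with RNA polymerase II, were grown in 10% serum or brought into quiescence in 0.1% serum. All cells were of the same immortalized line, and ΔLEO1 cells were 1 clone, so a property of that clone cannot be told apart from the loss of LEO1. Each of the 4 conditions had a pair of ChIP libraries and a pair of input libraries, which are the same chromatin before the antibody, replicates A and B, and the labels do not say whether they were separate cultures, so p-values measure the spread between these libraries only. ChIP replicate A of ΔLEO1 in 10% serum held 54 reads over all windows and none over the members, and it was left out, which leaves 1 ChIP library in that condition. The other ChIP libraries held 2153836 to 3696942 reads over the windows and the inputs 3267811 to 9238282, where a read in overlapping windows is counted in each. For marker genes, the log2 ratio of ChIP to input of a gene was taken as the median over its windows. The median of these gene values was -1.57 in wild type cells in 10% serum for the fibroblast genes COL1A1, COL1A2, COL3A1, VIM, THY1, PDGFRB, DCN, LUM, FAP and S100A4. It was 0.57 for 5 epithelial, 0.06 for 4 blood and 0.11 for 3 endothelial genes. In 0.1% serum the medians were -1.69, 0.80, 0.44 and 0.74, in the same order; these are levels of a chromatin mark on DNA and do not measure expression.

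Lysyl oxidases are secreted copper enzymes that oxidize lysine side chains in collagen and elastin, and the aldehydes formed then crosslink the fibres. They set much of the stiffness of the matrix that fibroblasts lay down. LOX and LOXL1 carry a propeptide that is cleaved off outside the cell, whereas LOXL2, LOXL3 and LOXL4 carry scavenger receptor domains. H3K9me2 is a histone mark of silent chromatin, written mainly by EHMT1 and EHMT2, and is usually low over active promoters.

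The promoters of LOX, LOXL1 and LOXL4 are shown because the gene start windows are centred on these starts, and that of a LOXL3 start inside the gene because its ChIP level differed from that of the LOXL3 gene start; each is the 250 bases before the start, 5′ to 3′ on the gene's strand, with CpG dinucleotides in capitals. The sequences are from RefSeq, GRCh38.p14, at chr5:122078260-122078509 (minus strand) for LOX, chr15:73926212-73926461 (plus strand) for LOXL1, chr2:74553943-74554192 (minus strand) for the LOXL3 start, and chr10:98268195-98268444 (minus strand) for LOXL4.
LOX: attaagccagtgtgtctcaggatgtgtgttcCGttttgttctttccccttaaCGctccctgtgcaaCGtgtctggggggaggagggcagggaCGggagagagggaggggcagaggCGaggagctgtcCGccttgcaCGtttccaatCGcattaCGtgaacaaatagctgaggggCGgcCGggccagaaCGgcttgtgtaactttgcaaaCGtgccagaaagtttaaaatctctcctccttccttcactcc
LOXL1: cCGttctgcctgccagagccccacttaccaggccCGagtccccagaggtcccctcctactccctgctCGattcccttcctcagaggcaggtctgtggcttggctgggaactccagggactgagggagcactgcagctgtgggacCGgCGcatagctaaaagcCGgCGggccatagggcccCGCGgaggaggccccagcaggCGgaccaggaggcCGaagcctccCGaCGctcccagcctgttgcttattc
LOXL3: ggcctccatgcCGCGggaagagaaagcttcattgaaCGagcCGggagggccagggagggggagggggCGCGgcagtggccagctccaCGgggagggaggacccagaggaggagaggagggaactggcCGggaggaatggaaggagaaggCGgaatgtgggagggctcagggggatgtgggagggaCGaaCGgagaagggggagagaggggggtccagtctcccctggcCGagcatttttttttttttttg
LOXL4: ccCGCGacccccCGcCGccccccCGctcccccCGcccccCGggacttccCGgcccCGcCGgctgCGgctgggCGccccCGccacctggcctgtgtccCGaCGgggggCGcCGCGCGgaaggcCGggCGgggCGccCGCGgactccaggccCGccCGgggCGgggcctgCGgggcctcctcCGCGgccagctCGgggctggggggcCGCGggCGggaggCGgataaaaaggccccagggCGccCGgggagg
LOX and LOXL1 each held 13 CpG, LOXL3 held 12 and LOXL4 held 37, while the median of 35116 promoters of the same length was 11. LOXL4 was 86.4% G and C, against a median of 58.0%, and had more CpG than 96.0% of promoters. The motif TATAAA, searched on both strands, was in none of the 4 and in 10.7% of all promoters of this length.

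The first question was how much of the mark each member carried over its start. In wild type cells in 10% serum the gene start windows ranked LOXL3, LOXL4, LOXL2, LOXL1 and LOX by ChIP signal in CPM, the reads of a window scaled to the same total in every library, all windows being of equal length. The level at LOX, the founding member of the family, was 0.514 ± 0.186 (SD, n = 2) CPM and that at LOXL1, which acts mainly on elastin, was 1.22 ± 0.103 (SD, n = 2). The level at LOXL2 was 1.79 ± 0.708 (SD, n = 2), at LOXL4 2.41 ± 0.703 (SD, n = 2) and at LOXL3 8.65 ± 1.28 (SD, n = 2). LOXL4 and LOXL2 overlapped between libraries, LOXL2 and LOXL1 met at the value of replicate B, and LOXL3 stood above and LOX below the others in both libraries. The LOXL3 rank holds for the window nearest to its gene start. Its start 1.76 kb into the gene was lower, at 2.85 ± 0.833 (SD, n = 2).

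LOX thus had the least ChIP signal of the gene starts in wild type cells in 10% serum. Its gene start window, chr5:122077259-122079259, held 1 and 2 ChIP reads in wild type cells in 10% serum, 1 in ΔLEO1 cells in 10% serum, 1 and 2 in wild type cells in 0.1% serum and 3 and 2 in ΔLEO1 cells in 0.1% serum. The inputs of these groups, most of them sequenced deeper, held 41 and 43, 18 and 34, 23 and 40, and 31 and 54 reads there. As CPM, too, every ChIP library was under every input. From summed reads the ratio of ChIP to input CPM was 0.0955 (95% exact binomial interval 0.0193 to 0.289) in wild type cells in 10% serum and 0.111 (95% exact binomial interval 0.0222 to 0.338) in 0.1% serum. In edgeR's quasi-likelihood test, which is scaled so that the typical start window lies near 0, the log2 ratio (± SE) was -2.57 ± 0.49 in wild type cells in 10% serum (adjusted p = 2.55e-06) and -2.37 ± 0.44 in ΔLEO1 cells in 0.1% serum (adjusted p = 1.91e-06). All 6 LOX windows were called lower, that is with an adjusted p under 0.05, than input in wild type cells in both serum levels and in ΔLEO1 cells in 0.1% serum, and 2 of 6 in ΔLEO1 cells in 10% serum, where there was 1 ChIP library. Of all windows, 29.1% and 28.0% were called lower in wild type cells in 10% and 0.1% serum, and 28.7% and 11.3% in ΔLEO1 cells in 0.1% and 10% serum. LOX windows lay above 0.697% to 18.0% of all windows in wild type cells.

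LOXL1, at chr15:73925462-73927462 for its gene start window, was also under its input. The ChIP libraries held 3 and 4, then 4, then 4 and 4, then 5 and 3 reads in the same order of groups. As CPM the single ΔLEO1 library in 10% serum lay highest, at 1.87. The wild type libraries in 10% serum had 1.15 and 1.29. The log2 ratio of ChIP to input was -1.48 ± 0.44 in wild type cells in 10% serum (edgeR, adjusted p = 0.00239) and -1.37 ± 0.43 in 0.1% serum (adjusted p = 0.00475). All 5 LOXL1 windows, including the 3 at a second cluster of starts 19.9 to 21.4 kb into the gene, were called lower in wild type cells at both serum levels, 3 of 5 in ΔLEO1 cells in 0.1% serum and 1 of 5 in 10% serum, against the same shares of all windows as for LOX. The windows at the LOXL1 gene start also cover the start of LOXL1-AS1 on the other strand, and reads of DNA cannot be assigned to one of them.

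LOXL3, which crosslinks collagen in cartilage and other tissues of the embryo, differed between its own starts. The window at the gene start, chr2:74554690-74556690, held 25 and 24 ChIP reads in wild type cells in 10% serum, 12 in ΔLEO1 cells in 10% serum, 41 and 22 in wild type cells in 0.1% serum and 31 and 25 in ΔLEO1 cells in 0.1% serum. Its log2 ratio to input was 0.89 ± 0.27 (edgeR, adjusted p = 0.00269) in wild type cells in 10% serum and 1.39 ± 0.26 (adjusted p = 3.64e-06) in 0.1% serum, above 95.1% of all windows. The window 1.8 kb into the gene, centred on 74553942, whose promoter is printed above, held 9 and 7, 1, 4 and 4, and 6 and 6 reads in the same order of groups. Its log2 ratio to input was -0.77 ± 0.35 in wild type cells in 10% serum (edgeR, adjusted p = 0.0524), just over the threshold of 0.05, and -1.41 ± 0.42 in 0.1% serum (adjusted p = 0.00282). So the gene start of LOXL3 was above its input and the start used by other transcripts was below it in wild type cells in 0.1% serum. The gene start was not called in wild type cells in 10% serum by DESeq2, and all LOXL3 windows but a pair also cover starts of the neighbouring gene DOK1. With library sizes taken from the peak regions, where ChIP is richer, every member window lay below input, and the LOXL3 gene start then stood above the typical window by log2 0.78 and 1.29 at the 2 serum levels. The 3 windows 6.0 to 6.2 kb into LOXL3 had log2 ratios from -0.17 to 0.54 in wild type cells and none was called.

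LOXL4 was between these. Its single window, chr10:98267194-98269194, held 5 and 9 ChIP reads in wild type cells in 10% serum, 10 in ΔLEO1 cells, 11 and 5 in wild type cells in 0.1% serum and 11 and 5 in ΔLEO1 cells. The log2 ratio to input was -0.56 ± 0.38 in wild type cells in 10% serum (edgeR, adjusted p = 0.203) and -0.66 ± 0.36 in 0.1% serum (adjusted p = 0.114), and it was not called in any of the 4 conditions.

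**Figure D1:**
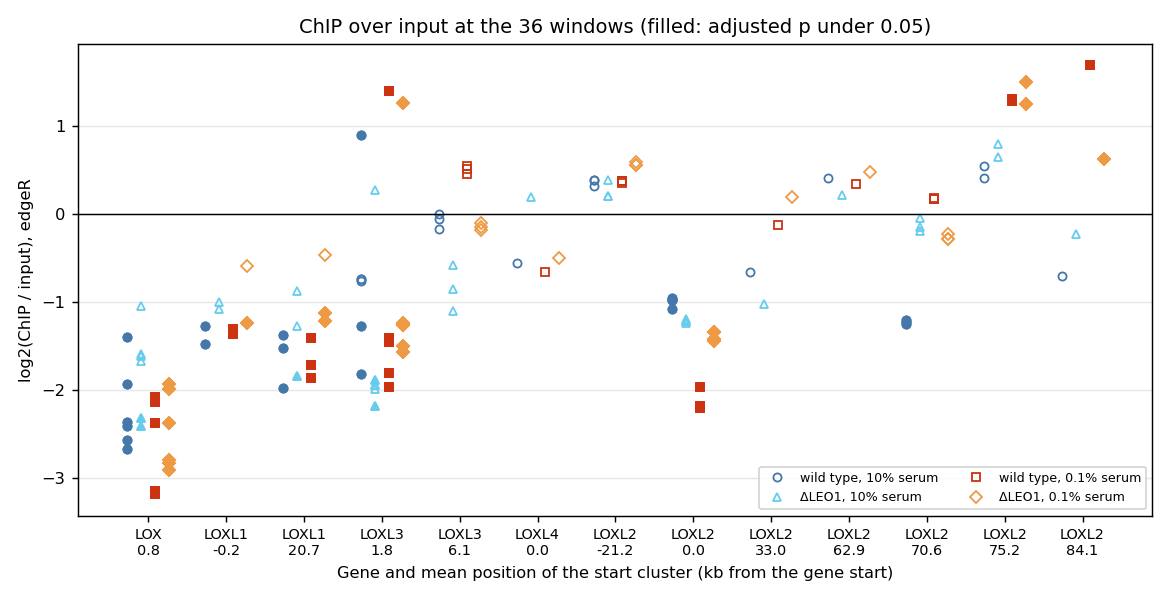
The plot of ChIP over input gives the log2 ratio (vertical axis, edgeR) at each of the 36 windows, grouped by gene and start cluster along the horizontal axis (kb from the gene start); colours are the 4 conditions and filled symbols have an adjusted p under 0.05. LOX windows run from -3.18 to -1.04, whereas the LOXL2 starts 75 kb and 84 kb into the gene reach 1.30 and 1.68 in wild type cells in 0.1% serum; the first LOXL3 cluster holds both the gene start and the inner starts. Filled symbols of LOXL2 are a description, since LOXL2 was chosen with ChIP results known.

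Over the whole family, 1 of 36 windows was called higher than input and 20 lower in wild type cells in 10% serum, where 58.7% of all windows were called, 29.5% higher and 29.1% lower. In 0.1% serum 4 were higher and 20 lower (25.7% and 28.0% of all windows, 53.6% in all). In ΔLEO1 cells 4 were higher and 18 lower in 0.1% serum (27.0% and 28.7%, 55.7% in all), and 0 higher and 5 lower in 10% serum (15.4% and 11.3%, 26.6% in all). This last condition had 1 ChIP library, assumed to vary like the other groups. The median log2 ratio over the 21 windows of LOX, LOXL1, LOXL3 and LOXL4 was -1.37 in wild type cells in 10% serum and -1.45 in 0.1% serum, and that over the 15 LOXL2 windows was -0.71 and 0.18, while all windows had medians of -0.04 and -0.02. The family counts include the LOXL2 windows. LOXL2 was chosen with ChIP results known, so its part of these counts is a description.

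LOXL2 spans 107 kb on the minus strand of chromosome 8 (23296897-23404120) and has starts in 7 clusters from 21.2 kb before the gene start to 84.1 kb inside it. At the gene start, chr8:23403120-23405120, the ChIP libraries held 6 and 4 reads in wild type cells in 10% serum, 3 in ΔLEO1 cells in 10% serum, 2 and 2 in wild type cells in 0.1% serum and 9 and 3 in ΔLEO1 cells in 0.1% serum. The inputs, which were sequenced deeper, held 21 and 45, 7 and 42, 39 and 28, and 33 and 47 reads. As CPM, every ChIP library lay under both inputs of its own condition. The level was 1.79 ± 0.708 (SD, n = 2) CPM in wild type cells in 10% serum and 0.670 ± 0.0928 (SD, n = 2) in 0.1% serum, without overlap, and in 0.1% serum it overlapped that of LOX (0.519 ± 0.306 (SD, n = 2)); the window was under the filter and the serum difference has no test. In ΔLEO1 cells it was 1.79 ± 0.858 (SD, n = 2) in 0.1% serum, and the single library in 10% serum lay between those libraries. Its log2 ratio to input (± SE, edgeR) in wild type cells was -0.98 ± 0.41 in 10% serum and -2.20 ± 0.47 in 0.1% serum. In ΔLEO1 cells it was -1.34 ± 0.38 in 0.1% serum and -1.21 ± 0.66 in 10% serum. LOXL2 was chosen with ChIP results known, so these ratios are a description and are given without p-values.

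Inside LOXL2 the levels differed between starts. The cluster 62.9 kb into the gene held 14 and 15 ChIP reads in wild type cells in 10% serum, 10 in ΔLEO1 cells, 12 and 18 in wild type cells in 0.1% serum and 24 and 15 in ΔLEO1 cells, and the serum levels overlapped in CPM in wild type cells. The window 75 kb in held 19 and 16 reads in wild type cells and 12 in ΔLEO1 cells in 10% serum, against 29 and 28 in wild type cells and 34 and 39 in ΔLEO1 cells in 0.1% serum. Both serum-starved groups were above both groups in 10% serum there. At the overlapping window 75.4 kb in, this did not hold. ΔLEO1 replicate A in 0.1% serum had 6.93 CPM there, below wild type replicate A in 10% serum with 7.26. The level at the window 75 kb in was 6.21 ± 1.48 (SD, n = 2) CPM in wild type cells in 10% serum and 9.53 ± 1.09 (SD, n = 2) in 0.1% serum. In ΔLEO1 cells it was 5.62 in the single library in 10% serum and 12.2 ± 4.49 (SD, n = 2) in 0.1% serum. In 0.1% serum its log2 ratio to input was 1.28 ± 0.27 in wild type cells and 1.49 ± 0.26 in ΔLEO1 cells, above 93.0% and 97.9% of all windows. With library sizes from the peak regions the 3 windows at 75 to 84 kb fell below input, and in 0.1% serum in wild type cells they stayed above the typical window by log2 1.19 to 1.60.

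The innermost start, 84.1 kb into the gene, is the window chr8:23319005-23321005. It held 2 and 11 ChIP reads in wild type cells in 10% serum, 6 in ΔLEO1 cells in 10% serum, 31 and 35 in wild type cells in 0.1% serum and 32 and 15 in ΔLEO1 cells in 0.1% serum. The inputs of these groups held 30 and 38, 15 and 28, 27 and 21, and 25 and 45 reads. All 4 serum-starved ChIP libraries were above the 3 libraries in 10% serum also as CPM, and the inputs did not follow this order. The level in wild type cells was 2.16 ± 1.97 (SD, n = 2) CPM in 10% serum and 11.1 ± 2.48 (SD, n = 2) in 0.1% serum. In ΔLEO1 cells it was 2.81 in 10% serum, with a 95% Poisson interval for counting error of 1.03 to 6.11, and 7.23 ± 1.84 (SD, n = 2) in 0.1% serum. The ratio of ChIP to input from summed reads was 0.511 (95% exact binomial interval 0.259 to 0.934) in 10% serum and 3.19 (95% exact binomial interval 2.17 to 4.73) in 0.1% serum in wild type cells, and was 0.763 (95% exact binomial interval 0.265 to 1.80) and 1.48 (95% exact binomial interval 0.999 to 2.17) in ΔLEO1 cells. These intervals cover counting error in the summed reads and not the spread between libraries. The wild type values are those from which LOXL2 was chosen, so their intervals are no test of a serum difference.

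**Figure D2:**
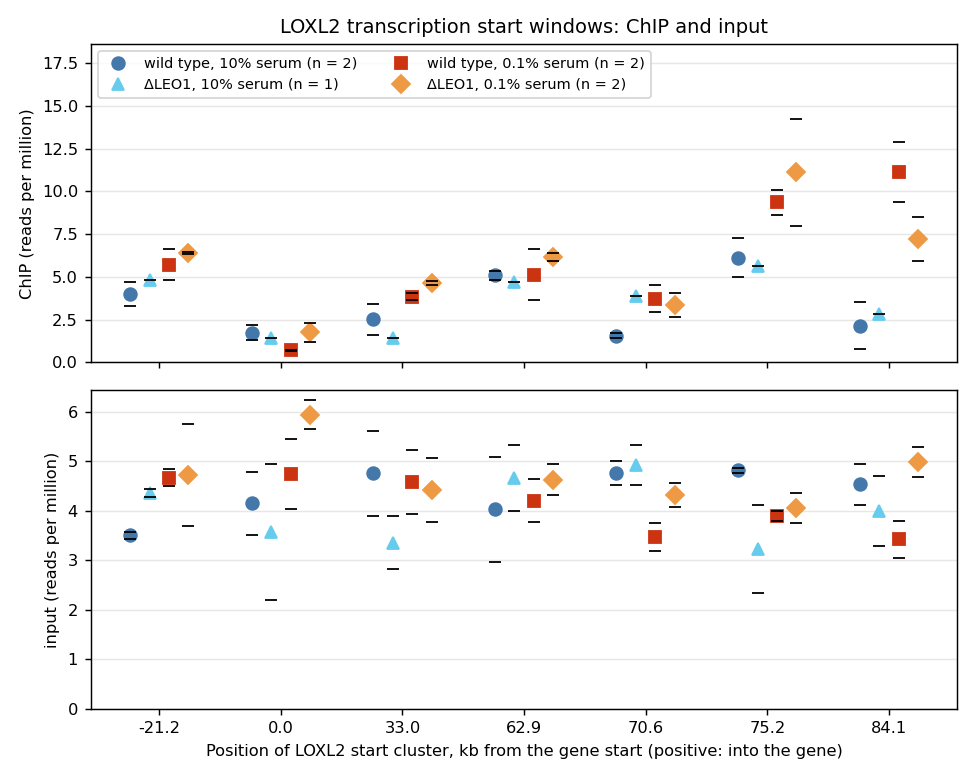
The plot of LOXL2 starts gives CPM in ChIP (upper) and input (lower) at the 7 start clusters, ordered by kb from the gene start; symbols are group means over the windows of a cluster and dashes the single libraries, of which ΔLEO1 in 10% serum has 1 in ChIP. In wild type cells in 0.1% serum ChIP is lowest at the gene start, and at 84.1 kb it stands at 11.1 in wild type cells in 0.1% serum against 2.16 in 10% serum, while the inputs there lie between 3.42 and 4.99.

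The comparison of serum levels in wild type cells asked where the mark differs between quiescent and proliferating fibroblasts. Of the 36 windows, 16 had enough reads to be tested in ChIP, namely 11 of LOXL2, 4 of LOXL3 and the LOXL4 window; all windows of LOX and LOXL1, the LOXL2 gene start and the inner LOXL3 starts near 74553942 were too low. The innermost LOXL2 start was higher in 0.1% serum by a log2 difference of 1.97 ± 0.34, from the comparison that chose it, and it was the only 1 of the 16 called in edgeR, against 0.270% of all windows called, 0.0727% higher and 0.197% lower. This call depended on the analysis: with DESeq2, which called 0 of 159524 windows in either direction in this comparison, it was not called. It was also not called without wild type replicate A in 10% serum, the library with 2 reads, where the log2 difference was 1.45, with the nearly empty ΔLEO1 library kept (1.93), or with the input difference subtracted (2.39); without replicate B in 10% serum it was 2.99. Over the alternatives tried the difference ran from 1.45 to 2.99; the call, its share and its sign come from the values that chose LOXL2 and are a description.

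The other LOXL2 starts lay lower, with log2 differences of 0.56 and 0.57 at 75 kb, 0.89 to 1.00 at 70.5 kb, 0.52 at 33.0 kb, 0.37 to 0.48 at 21.2 kb before the gene and -0.02 ± 0.34 at 62.9 kb. The 70.5 kb windows overlap and held 3 to 6 ChIP reads per library in wild type cells in 10% serum and 9 to 13 in 0.1% serum. Over all 15 LOXL2 windows, the libraries of the 2 serum levels did not overlap at 8, which were higher in 0.1% serum, and at 4, which were lower; the 8 passed the filter on low counts and the 4, all at the gene start, did not. Over the 36 windows of the family, 9 were higher and 11 lower without overlap. Of all windows that passed the filter, 20.1% were higher and 19.6% lower without overlap, and nothing is read from these counts, since LOXL2 was chosen from this comparison and the filter keeps low windows only where a group is high. The median over the 11 windows was 0.56, and over all windows it was 0.01.

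LOXL3 and LOXL4 did not differ detectably with serum in wild type cells. The LOXL3 gene start had a log2 difference of 0.27 ± 0.26 (edgeR, adjusted p = 0.796) and overlapped between serum levels, and LOXL4 had 0.09 ± 0.46 (adjusted p = 0.977). None of their 5 windows had an unadjusted p under 0.05 in edgeR, as 15000 of all 159524 windows had, and the median over them was 0.08. LOX and LOXL1 could not be tested at this depth: no LOX window held more than 5 ChIP reads and no LOXL1 window more than 9 in any library.

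The ΔLEO1 libraries are outside the wild type serum comparison, but LOXL2 was chosen with ChIP results known, so its values here are also a description. The ΔLEO1 group in 10% serum is 1 library, assumed to vary like the other groups. The innermost LOXL2 start had a log2 difference of 1.22 ± 0.49 between 0.1% and 10% serum, the 75 kb start 0.97 ± 0.39 and the 33.0 kb start 1.34 ± 0.60, the last with 3 reads in 10% serum and 17 and 12 in 0.1% serum. At 70.5 kb it was -0.25 to -0.19, with 8 to 9 reads in 10% serum and 9 to 12 in 0.1% serum. None of the 16 windows was called, against 0.0633% of all windows (0.0125% higher and 0.0508% lower), 3 of them had an unadjusted p under 0.05, as had 14795 of all 159524 windows, and DESeq2 called none of the 16. LOXL3 at its gene start had 0.61 ± 0.41 (edgeR, adjusted p = 0.680) and LOXL4 -0.73 ± 0.55 (adjusted p = 0.728). The difference between the genotypes in their response to serum was tested as an interaction over 159524 windows, and 0 were called, with 9012 at an unadjusted p under 0.05 and 0 of the 16 member windows among them.

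**Figure D3:**
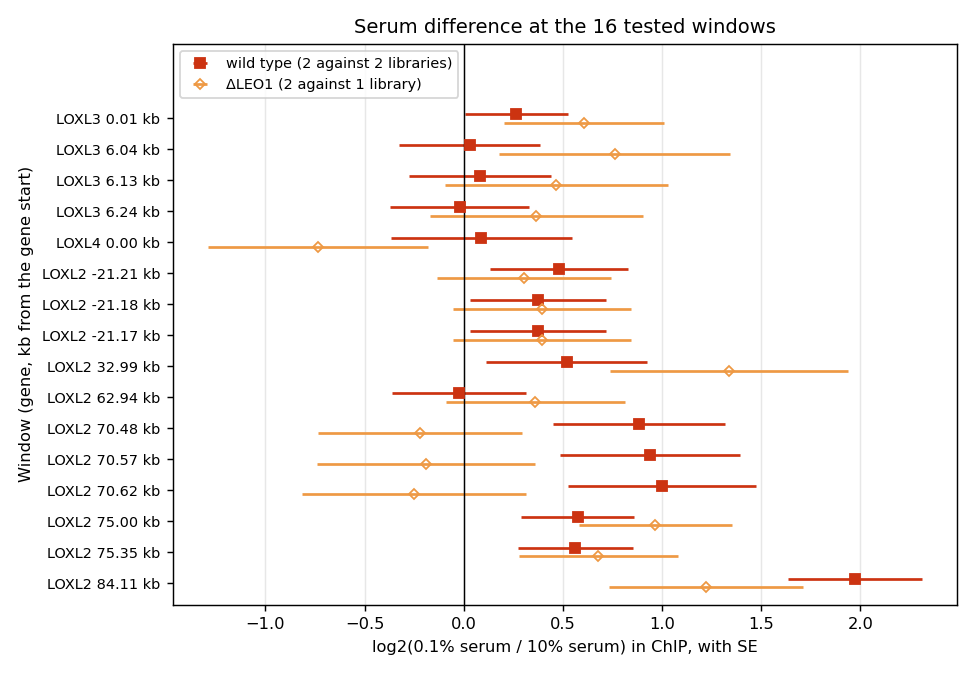
The plot of serum differences gives the log2 difference in ChIP between 0.1% and 10% serum (horizontal axis, with SE) at the 16 tested windows, filled squares for wild type and open diamonds for ΔLEO1 cells. The innermost LOXL2 start lies farthest to the right in wild type cells at 1.97, and at 1.22 in ΔLEO1 cells, while the LOXL3 and LOXL4 windows in wild type cells lie between -0.02 and 0.27.

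Loss of LEO1 was compared with wild type at each serum level. In 0.1% serum none of the 16 windows was called, against 0.347% of all windows (0.0815% higher and 0.266% lower). None had an unadjusted p under 0.05 in edgeR, as 17075 of all 159524 windows had. DESeq2 called 0 of all 159524 windows in this comparison, so it says nothing about the members. The innermost LOXL2 start had a log2 difference of -0.51 ± 0.26 in ΔLEO1 cells, with libraries that did not overlap as CPM (5.93 and 8.53 against 9.36 and 12.9). The wild type libraries here are those from whose high values LOXL2 was chosen, so a lower value in ΔLEO1 cells is favoured by that choice. Over all 36 windows, 17 were higher in ΔLEO1 cells without overlap (5 of LOX, 2 of LOXL1, 5 of LOXL2 with all 4 at its gene start, and 5 of LOXL3) and 2 were lower. Of these, 16 of the higher windows were under the filter on low counts, with at most 9 ChIP reads a library and many of the reads shared. The share of all windows under the filter that were higher or lower was not computed, so nothing is read from these counts. The inputs in 0.1% serum had 19 of the 36 windows higher and 3 lower in ΔLEO1 cells without overlap, against 18.0% and 18.5% of all windows. Of the 16 tested windows 1 was higher and 2 were lower without overlap, where 19.7% of all windows tested were higher and 21.1% lower. The input at the innermost start differed by 0.52 ± 0.28, in the opposite direction (edgeR, adjusted p = 0.924). The other LOXL2 windows had differences between -0.17 and 0.28. The LOXL3 gene start had -0.21 ± 0.25 (edgeR, adjusted p = 0.821) and LOXL4 -0.05 ± 0.45 (adjusted p = 0.982). In 10% serum, with the single ΔLEO1 library, 0 of 16 were called against 0.0295% of all windows (0.00439% higher and 0.0251% lower), 0 had an unadjusted p under 0.05, and DESeq2 called none. The differences there ran from -0.98 at a LOXL3 start 6.0 kb into the gene to 1.08 at the LOXL2 start 70.6 kb in, where ΔLEO1 cells had 8 reads and wild type cells 3 and 5.

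The amounts of fly spike-in chromatin added to the samples were not used here, so a change of the mark over the whole genome would not show in any of these comparisons; what is given is each window against the typical window.

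In the inputs, which were tested without regard to the choice of LOXL2, no member window was called in any of the 4 comparisons. Of all windows, 0.0235% were called for serum in wild type cells (0.000840% higher and 0.0227% lower), 0.00210% for ΔLEO1 against wild type in 10% serum (all 0.00210% higher) and 0% in the other 2. DESeq2 called 0 of all 238006 windows in each of these comparisons, so it says nothing about the members. Of 36 windows, 0 had an unadjusted p under 0.05 in edgeR for ΔLEO1 against wild type in 0.1% serum, 3 for serum in wild type cells, 6 for ΔLEO1 in 10% serum and 7 for serum in ΔLEO1 cells. Of all 238006 windows, 12688, 24311, 15708 and 9436 had an unadjusted p under 0.05 in these comparisons, in the same order. At the innermost LOXL2 start the input difference with serum was -0.35 ± 0.28 in wild type cells (edgeR, adjusted p = 0.688) and 0.41 ± 0.28 in ΔLEO1 cells (adjusted p = 1.000). At the LOXL2 gene start it was 0.15 ± 0.26 (edgeR, adjusted p = 0.892) and 0.46 ± 0.27 (adjusted p = 1.000). The largest of the member differences with serum in the ΔLEO1 inputs was 0.74 ± 0.28 at a LOXL3 start 1.7 kb into the gene (edgeR, adjusted p = 1.000).

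**Figure D4:**
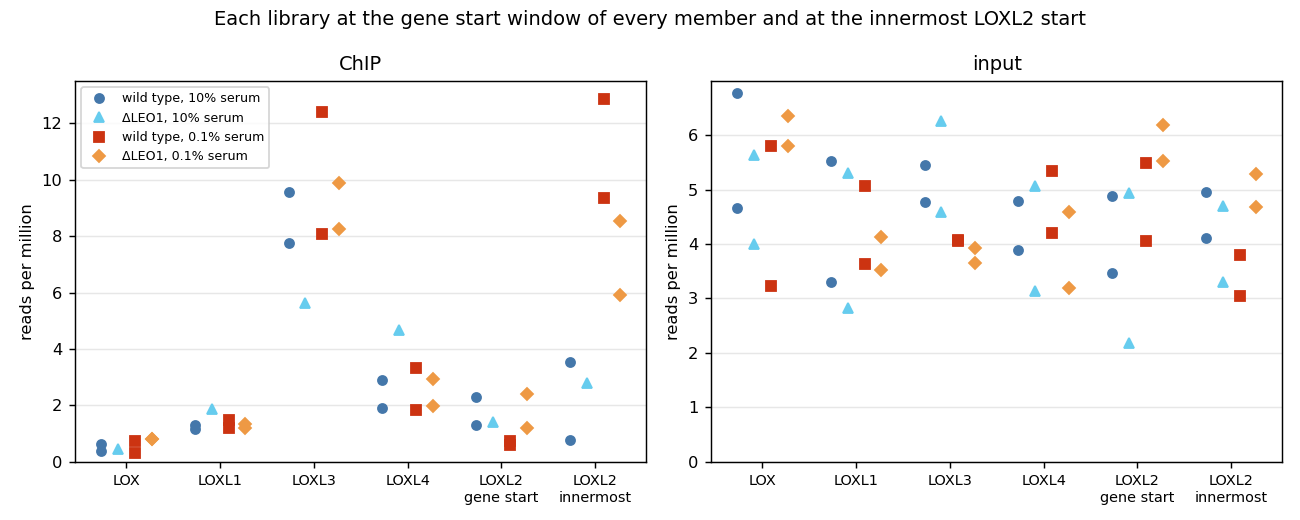
The plot of members by library gives CPM (vertical axes, each from 0) in each ChIP library (left) and input library (right) at the gene start window of every member and at the innermost LOXL2 start, coloured by condition. In ChIP the LOXL3 gene start lies between 5.62 and 12.4 and the LOX gene start under 1 in every library, and at the innermost LOXL2 start the wild type libraries in 0.1% serum reach 12.9; in the inputs all members share a range from 2.19 to 6.77.

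LOXL2 was then set against the rest of the family within each library, as a description. At the gene start windows the ChIP level of LOXL2 was below the mean of the other 4 members in all 7 libraries, with ratios of 0.558 ± 0.209 (SD, n = 2) in wild type cells in 10% serum, 0.191 ± 0.0722 (SD, n = 2) in 0.1% serum, 0.444 in the single ΔLEO1 library in 10% serum and 0.531 ± 0.267 (SD, n = 2) in ΔLEO1 cells in 0.1% serum. The mean of the others is carried by the LOXL3 window nearest to its gene start. In wild type cells in 10% serum that window had 8.65 CPM, against 2.85 at the LOXL3 start 1.76 kb into the gene. These ratios thus depend on the LOXL3 window taken. The input ratios were 0.859 ± 0.249 (SD, n = 2), 1.08 ± 0.226 (SD, n = 2), 0.767 ± 0.390 (SD, n = 2) and 1.34 ± 0.162 (SD, n = 2) in the same order. With the mean over all distinct windows of each gene the order turned: LOXL2 was above the others in all 7 ChIP libraries, with 1.54 ± 0.216 (SD, n = 2) in wild type cells in 10% serum, 2.51 ± 0.785 (SD, n = 2) in 0.1% serum, 1.53 in the ΔLEO1 library in 10% serum and 2.49 ± 0.281 (SD, n = 2) in 0.1% serum. The input ratios were then between 0.879 and 1.04. How LOXL2 compared with the family thus depended on which windows were taken, both of LOXL2 and of LOXL3.

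The neighbourhood of each member was examined for a change of the same kind. Within 200 kb of the LOXL2 gene start 40 further windows of other genes could be tested, and none was called for serum in wild type cells; their log2 differences ran from -0.45 to 1.22, with a median of 0.19. The highest were ENTPD4 at -43.7 kb from the LOXL2 gene start (1.22 ± 0.36, SE) and CHMP7 at 149 kb from it on the gene side (1.10 ± 0.36). Around LOX, LOXL1, LOXL3 and LOXL4, where 10, 31, 143 and 44 windows were tested, 0 were called either, with medians of 0.43, 0.59, 0.09 and -0.33. For ΔLEO1 against wild type in 0.1% serum none was called around any member.

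A second table counts reads in peak regions, and 1 of its regions, chr8:23319891-23320606, 715 bp in an intron of LOXL2 by the table's own annotation, lies inside the window of the innermost start. It held 1 and 5 ChIP reads in wild type cells in 10% serum, 3 in ΔLEO1 cells in 10% serum, 22 and 23 in wild type cells in 0.1% serum and 15 and 6 in ΔLEO1 cells in 0.1% serum. The inputs held 10 and 16, 8 and 10, 12 and 6, and 12 and 22 reads. These are largely the same reads as in the window and no separate evidence. Of the 20 peak regions within 200 kb of a member, this was the only 1 inside a member gene, and its ratio of 0.1% to 10% serum in wild type cells, 8.22 in CPM over peak regions, was the highest, the next being 2.40 near LOXL1.

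Other genes of collagen and elastin maturation, a list of 39 with the collagen hydroxylases, chaperones, procollagen proteases, elastic fibre proteins and the fibrillar collagens COL1A1, COL1A2 and COL3A1, were compared in the same way. Of the 34 with a testable window, 0 were called higher and 1 lower in 0.1% serum in wild type cells. For ΔLEO1 in 0.1% serum 0 were called in either direction. Of all single windows, 0.0727% were higher and 0.197% lower for serum in wild type cells, and 0.0815% and 0.266% for ΔLEO1. A gene counted as called if any of its windows was, and the share over all genes was not computed. The gene called was COL3A1, the chain of type III collagen, at 1 of its 3 testable windows, with a log2 difference of -1.60 (edgeR, adjusted p = 0.0439). DESeq2 called 0 of all 159524 windows for serum in wild type cells. The median of the gene medians of the list was 0.12 for serum in wild type cells and 0.18 for ΔLEO1 in 0.1% serum. The medians over all single windows were 0.01 and -0.01. Most genes of the list were under their input, with a median of gene medians of -0.96 in log2 in wild type cells in 10% serum and -1.04 in 0.1% serum. The list was mixed, though. Of the 38 genes tested over input, 7 had a median above 0 in 10% serum and 8 in 0.1% serum, the highest at 1.87 and 1.46.

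By likeness of pattern over the 7 ChIP libraries, the LOXL2 gene start, with few reads, was nearest to windows of PPP1R3B-DT (Pearson r = 0.989), CSNKA2IP (0.987) and SAMD3 (0.982), out of 100099 windows, of which 135 had r above 0.9. With 7 libraries and so many windows compared, values this high are a description only.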

How the data were processed

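H3K9me2 ChIP-seq and input libraries of BJ-5ta cells were used; the labels give the antibody only as H3, and the methods of the study name H3K9me2. The authors deposited raw read counts per 2000-bp start window and per peak region on hg38, without normalization; the submitters' processing notes name bcl2fastq 2.20.0.422, STAR 2.7.10a and HOMER. ChIP replicate A of ΔLEO1 in 10% serum was left out of the main fits. Windows were filtered with edgeR's filterByExpr (minimum count 10), scaled by TMM and tested with the quasi-likelihood F-test (edgeR 4.0.16, limma 3.58.1, R 4.3.3, prior count 2). Serum, genotype and their interaction were fitted in 7 ChIP libraries (159524 windows) and 8 inputs (238006), and ChIP over input in 15 libraries (237580). P-values were adjusted by Benjamini-Hochberg over all windows, with a threshold of 0.05, and SE is the log2 value over the square root of F. CPM (reads scaled to a common total) uses totals over the start windows. Intervals of ratios and of single libraries are exact and cover counting error only. DESeq2 1.42.0, other scalings, no filter, a replicate block and leaving out each library were alternatives, and the tests were checked on simulated counts. The windows named were all those of the members; the window nearest to the RefSeq gene start stands for a gene. The members and gene lists were chosen with earlier results of these data known.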

Additional observations from a re-analysis of the deposited data

Results flagged for a closer look

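At the LOXL3 start 1.7 kb into the gene (74553961), all wild type ChIP libraries in 0.1% serum lay below those in 10% serum, with 4 and 4 reads against 9 and 7, while both ΔLEO1 libraries in 0.1% serum lay above the single one in 10% serum, with 6 and 6 reads against 1. The change in mean CPM with low serum was higher in ΔLEO1 than in wild type cells by 3.03. The input moved in the same way, from 5.48 to 4.64 CPM in wild type and from 3.06 to 5.45 CPM in ΔLEO1 cells, and its log2 difference between the genotypes in the change with serum was 0.99 ± 0.37 (SE, edgeR, adjusted p = 0.675). For ChIP the difference was not tested, since the window was under the filter on low counts. The windows at 74553958 and 74553942 held the same ChIP counts and nearly the same input counts.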

How the results depend on the processing

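For serum in wild type ChIP, where 1 member window was called, 0 were called with all 8 ChIP libraries, with DESeq2 or with the input difference subtracted, and 0 to 1 with a library left out, 0 without wild type replicate A in 10% serum. For ChIP over input in wild type cells in 10% serum, 36 windows were called with library sizes from the peak regions, against 21. With those sizes 224830 of all 239017 windows were called lower and 29 higher, so nothing is read from the 36. In ΔLEO1 cells in 10% serum the calls also changed with the scaling, the method and the input libraries used. They rest on 1 ChIP library, and leaving it out gives no value. Library sizes from the peak regions moved the median log2 ratio of all windows to input to -2.18, -1.92, -1.63 and -1.85 (wild type 10%, wild type 0.1%, ΔLEO1 0.1%, ΔLEO1 10% serum), and the gene starts of LOX, LOXL1 and LOXL2 stayed below these medians. They also changed how many of all windows were higher and lower: for serum in wild type ChIP from 116 and 315 to 299 and 171, for serum in ΔLEO1 cells from 20 and 81 to 91 and 21, for ΔLEO1 in 0.1% serum from 130 and 424 to 2152 and 145, and for ΔLEO1 in 10% serum from 7 and 40 to 26 and 21. DESeq2 called 0 windows in each of these 4 comparisons. Over input, without TMM, the split in wild type cells in 10% serum went from 70135 and 69241 to 58919 and 81713. With means over all distinct windows, the ratio of LOXL2 to the other members was 1.54 and 2.51 in wild type ChIP in 10% and 0.1% serum, 1.53 and 2.49 in ΔLEO1 ChIP, and 1.04 in the ΔLEO1 input in 0.1% serum. The cause of these differences was not tested. The replicate letters did not pair the samples (correlation of A minus B between groups 0.0036 to 0.11), and with the replicate block 1 member window was called for serum in wild type ChIP and 21, 24, 21 and 5 over input. Of the other values, 354 stayed within the spread or on the same side of the threshold and 21 moved. Depth limits LOX, LOXL1, the LOXL2 gene start and the LOXL3 starts 1.7 to 3.1 kb into the gene, with at most 9 ChIP reads a library.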
